A study of Homo sapiens with 16 samples.

Results

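Enzalutamide (EZ), an androgen receptor antagonist, was given to 2 forms of LNCaP, an androgen-responsive human prostate adenocarcinoma cell line, and the question was which genes responded differently in the 2 forms. The parental cells (WT) were compared with an RB-p53 double knockout (DKO) made from them with CRISPR-Cas9; whether the DKO line was 1 clone or a pool is not given in the sources used here. Both were grown in medium with 10% fetal bovine serum and received 50 µM EZ or an equal volume of the solvent DMSO for 6 days. All 16 of the series' 16 libraries were used, 4 each of WT in DMSO, WT in EZ, DKO in DMSO and DKO in EZ. Each EZ library was set against the DMSO library of the same genotype and replicate number, which gave 4 paired differences in WT and 4 in DKO. The quantity described below, called the genotype difference, is the drug effect in DKO minus the drug effect in WT on the log2 scale. Above 0 the gene ended relatively higher after EZ in DKO than in WT, and below 0 relatively lower.

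The androgen receptor is a ligand-activated transcription factor, and an antagonist such as enzalutamide keeps it from driving the genes of the luminal prostate cell. RB restrains the E2F transcription factors and entry into S phase, and p53 is a stress-activated transcription factor that also limits the cell cycle and ribosome production. Loss of both is known from prostate cancers that resist androgen receptor inhibition and change lineage.

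Total counts per library ran from 11823438 to 47678648, with a median of 23919882. RB1 stood at a normalised level of 95.6 to 128 CPM (read counts scaled to library size by TMM) in the 8 WT libraries and at 9.04 to 13.4 CPM in the 8 DKO libraries, with no overlap between the genotypes. The summed unscaled level of 22 luminal markers was 7418 to 9281 CPM in WT and 5671 to 7126 CPM in DKO, against 1.33 to 6.36 CPM, also unscaled, for 12 leukocyte markers over all libraries. The basal keratin gene KRT5 reached at most 0.0846 CPM and the neural factor gene SOX2 at most 0.0472 CPM in any library, both unscaled, and neither was tested. The signal recognition particle RNA gene RN7SL1 parted the libraries within both genotypes, at 2201 to 6207 unscaled CPM in WT replicate 1 and DKO replicates 1 and 2 and at 481 to 1166 CPM in the others.

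Of 21810 tested genes, 39 (0.179%) passed the threshold of 0.05 on the adjusted p of edgeR's paired quasi-likelihood test. The genotype difference was above 0 for 12 of them (0.055% of all genes) and below 0 for 27 (0.124%). In all 12 the 4 DKO paired differences lay above the 4 WT ones, as in 2.86% of all genes, and in all 27 below them, as in 4.26%; the test used the same values. EZ itself changed many more genes, 2641 (12.1%) in WT and 1691 (7.75%) in DKO. In WT 1672 were higher and 969 lower, a split that depended on scaling (1163 and 1382 with upper-quartile scaling, 1124 and 1416 on library totals), and in DKO 1010 were higher and 681 lower. Of the drug-effect calls, 908 were called in both genotypes, 34.4% of the WT calls and 53.7% of the DKO calls, and 906 of the 908 moved in the same direction. The median genotype difference over all tested genes was 0.00. Among the 39 genes, 18 had a genotype difference of more than 2-fold, and 32 were protein coding.

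**Figure D1:**
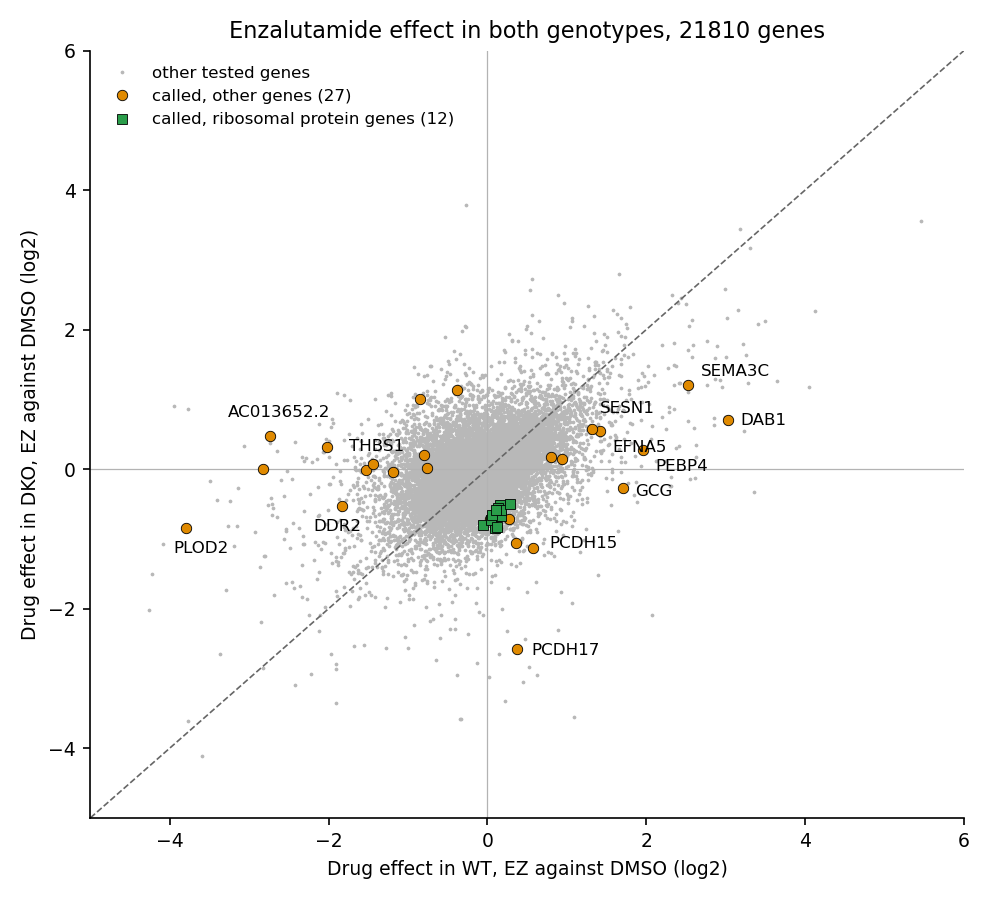
Drug effect (EZ against DMSO, log2) in DKO against that in WT for each of the 21810 tested genes (grey points), with the dashed line marking equal effects. Orange circles are called genes outside the ribosomal protein family and green squares the 12 called ribosomal protein genes, which lie near 0 in WT and below 0 in DKO; PLOD2, THBS1 and DDR2 lie far to the left of the line, and SEMA3C and DAB1 to the right of it.

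The 39 genes fell into a few patterns, read from each genotype's own drug effect in the same edgeR fit. In 9 genes EZ lowered the transcript in WT and the drug effect in DKO was not called. DDR2 was lowered in both genotypes, less so in DKO. In 5 genes EZ raised the transcript in WT alone by the calls, and in 3 (SEMA3C, EFNA5 and SESN1) it raised the transcript in both, less in DKO. The largest pattern, 19 genes, was a fall called in DKO with no called change in WT, and 12 of these 19 encode ribosomal proteins. The remaining 2 were AC073389.3, which rose in DKO alone by the calls, and AC023590.1, which fell in WT and rose in DKO.

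The number of calls depended on single pairs. edgeR called 63 genes without the pair WT replicate 1, 0 without WT replicate 2 (unadjusted p under 0.05 for 1659 genes), 1 without WT replicate 3, 70 without WT replicate 4, 3 without DKO replicate 1, 0 without DKO replicate 2 (1813 genes), 0 without DKO replicate 3 (1664 genes) and 5 without DKO replicate 4. With no replicate block it called 0 (648 genes at an unadjusted p under 0.05), while DESeq2 called 195 and limma-voom 64 with the paired design, each including all 39. All 39 genes kept their sign in each of the 18 alternatives, and each passed the threshold in 6 to 13 of them.

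The start sites of ribosomal protein genes are shown first, because 12 of the called genes belong to this family. Transcripts of ribosomal proteins and other parts of the translation machinery typically begin with a C followed by a run of pyrimidines, the 5′ terminal oligopyrimidine (TOP) tract, through which their translation and stability respond to growth signals. The lines below give 40 bases around the RefSeq start of called genes with such a run and, as a contrast, of RPS4X, which was called and has none of 7 or more bases. Each runs 5′ to 3′ from 20 bases before the start to 20 after it (GRCh38.p14, RefSeq), and capitals mark the unbroken run of C and T at the start.
RPL13A, chr19:49487588-49487627, plus strand: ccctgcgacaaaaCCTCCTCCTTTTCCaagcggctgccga
RPL10, chrX:154398357-154398396, plus strand: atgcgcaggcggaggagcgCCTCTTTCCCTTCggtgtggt
RPL28, chr19:55385912-55385951, plus strand: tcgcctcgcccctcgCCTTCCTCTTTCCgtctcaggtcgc
RPS14, chr5:150449720-150449759, minus strand: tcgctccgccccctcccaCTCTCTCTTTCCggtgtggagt
RPS9, chr19:54200838-54200877, plus strand: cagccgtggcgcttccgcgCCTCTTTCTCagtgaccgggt
RPS3, chr11:75399498-75399537, plus strand: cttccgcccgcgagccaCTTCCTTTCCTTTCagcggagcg
RPL7A, chr9:133348198-133348237, plus strand: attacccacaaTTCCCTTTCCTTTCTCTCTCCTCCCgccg
SLC25A6, chrX:1392094-1392133, minus strand: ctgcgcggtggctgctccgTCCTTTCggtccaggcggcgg
NOP53, chr19:47745526-47745565, plus strand: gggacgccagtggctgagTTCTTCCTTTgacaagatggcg
RPS4X, chrX:72277229-72277268, minus strand: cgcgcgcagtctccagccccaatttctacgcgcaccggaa
The run searched was 7 or more bases made only of C and T, on the sense strand, touching the 5 bases on either side of the start. A RefSeq window was found for 63 of the 79 tested ribosomal protein genes, and 52 of these (82.5%) held a run. It was found in 8 of 10 called ribosomal protein genes with a window and in 6 of 20 other called genes (30.0%), so the called family members held a run about as often as the family as a whole. Among 11535 tested protein-coding genes with a window, 2404 (20.8%) held one. A gene with several start sites counted by its longest run, and a run is a match of letters, not a measured TOP transcript.

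All 79 tested genes of cytosolic ribosomal proteins, which were gathered by symbol after the family was seen among the calls, had a genotype difference below 0. It ranged from −0.95 (RPL10) to −0.15 (RPL36A), with a median of −0.59 against 0.00 over all genes. EdgeR called 12 of the 79 lower and none higher, where 0.124% of all genes were called lower. All 4 DKO paired differences lay below all 4 WT ones for 60 of the 79, against 4.26% of all genes. In the drug effect within DKO, 50 of the 79 were called lower, against 3.12% of all genes, and 78 were below 0. Within WT, 3 were called higher and 68 were above 0. The 47 genes of the large subunit (7 called, median −0.59) and the 32 of the small subunit (5 called, median −0.59) had nearly the same shares and medians. A shorter list of 35 tested ribosomal protein and elongation factor genes, chosen from earlier results of these data, held 10 of the calls and had a median of −0.66.

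The summed level of the 79 genes, as a percentage of the TMM-scaled library, showed the pattern in each pair. In WT it went from 5.54% in DMSO to 7.01% in EZ for replicate 1, from 3.52% to 3.56% for replicate 2, from 3.21% to 3.51% for replicate 3 and from 4.76% to 4.96% for replicate 4. In DKO it went from 3.95% to 2.81%, from 4.15% to 3.10%, from 3.14% to 2.36% and from 3.88% to 2.44% for replicates 1 to 4. All 4 DKO pairs went down to between 0.628 and 0.751 of the DMSO level, and no WT pair did. On unscaled library totals WT replicate 2 went down, from 3.52% to 3.32%, and the other 7 pairs kept these directions. These are shares of the sequenced RNA, so a lower share and less RNA per cell cannot be told apart.

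**Figure D2:**
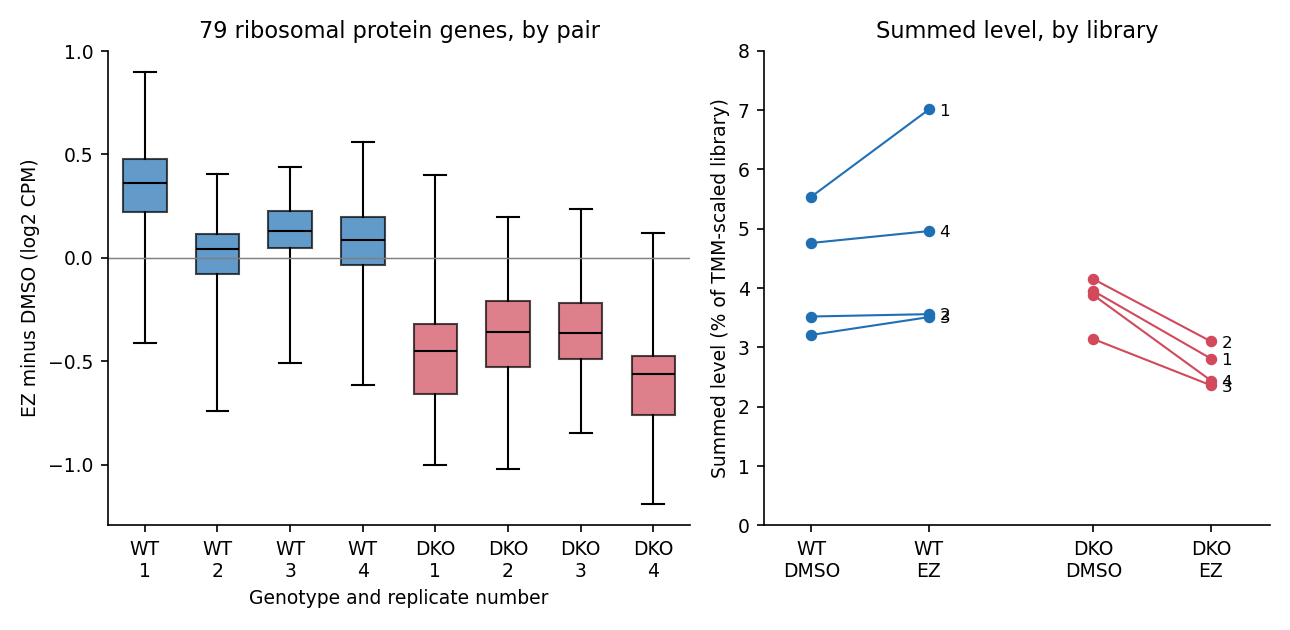
Left, EZ minus DMSO difference (log2 CPM) of the 79 ribosomal protein genes in each pair, as a box from the lower to the upper quartile with the median line and whiskers to the extremes. Right, their summed level in each library as a percentage of the TMM-scaled library, with lines joining the 2 libraries of a pair and digits giving the replicate number. Pair medians were 0.04 to 0.36 in WT and −0.56 to −0.36 in DKO.

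The pair medians of the family were 0.36, 0.04, 0.13 and 0.09 in WT and −0.45, −0.36, −0.36 and −0.56 in DKO, for replicates 1 to 4. Among the pairs with high RN7SL1 the WT value was 0.36 and the DKO values −0.45 and −0.36, and among the pairs with low RN7SL1 the WT values were 0.04 to 0.13 and the DKO values −0.56 and −0.36. Any part of the RN7SL1 difference was not tested by this split. All 4 DKO values lay below all 4 WT values, which fixes the order within any subset of pairs. The mitosis genes did not follow this order: their pair medians were −3.09, −0.33, −0.15 and 1.74 in WT and −2.37, −0.66, −0.62 and 0.05 in DKO.

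RPL13A (chromosome 19, 49487554 to 49492308), a component of the large subunit, had the second lowest genotype difference of the family, well below its median. Its level was 2552, 1848, 1679 and 2512 CPM in WT DMSO and 2956, 1806, 1739 and 2828 CPM in WT EZ, and 1269, 1344, 1427 and 1780 CPM in DKO DMSO and 757, 861, 794 and 804 CPM in DKO EZ. In WT the drug and solvent libraries overlapped, whereas every DKO EZ library was below every DKO DMSO library. The drug effect was 0.10 ± 0.10 (SE) in WT and −0.85 ± 0.10 in DKO, a genotype difference of −0.95 ± 0.14 (edgeR adjusted p = 0.0293).

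RPS4X (chromosome X, 72255679 to 72277300), the X-linked form of a small subunit protein, also fell in all 4 DKO pairs. The RefSeq start used here carries no run of 7 pyrimidines, and whether such runs bear on the fall was not tested. It stood at 1230, 1197, 1078 and 1296 CPM in DKO DMSO and at 770, 743, 755 and 766 CPM in DKO EZ. The 4 DKO EZ libraries lay closer together than those of any other group. In WT it went from 1570, 1189, 1092 and 1451 CPM to 1788, 1159, 1170 and 1427 CPM, and the genotype difference was −0.72 ± 0.12 (edgeR adjusted p = 0.0366).

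RPL10 (chromosome X, 154389955 to 154409168), which completes the large subunit late in its assembly, had the lowest genotype difference of the family, −0.95 ± 0.16 (edgeR adjusted p = 0.0438). Its level also followed the RN7SL1 split, at 894 CPM in WT DMSO replicate 1 against 257 to 425 CPM in the other WT DMSO libraries. In DKO it went from 667, 759, 295 and 382 CPM in DMSO to 409, 463, 181 and 168 CPM in EZ, a fall in both sets of libraries. RPL18AP3, a processed pseudogene of a ribosomal protein gene on chromosome 12, was called too (−0.99 ± 0.16, edgeR adjusted p = 0.0366) and stood at 11.8 to 39.8 CPM in the high RN7SL1 libraries and 1.49 to 4.92 CPM in the others. Ribosomal protein genes have many near-identical pseudogenes, and how the authors' counting divided such reads is not given in the sources used here, so the values of single family members are uncertain.

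The other 9 called members were RPL10A, RPS15A, RPS9, RPL28, RPS14, RPL32, RPL23, RPS3 and RPL7A. Over all 12, the genotype difference ran from −0.95 to −0.67, the fall in DKO from 1.42-fold to 1.80-fold, and the fold in WT from 0.964 to 1.22. RPS16, which encodes a small subunit protein, had the smallest adjusted p above the threshold (−0.71, edgeR adjusted p = 0.05 when rounded). Without WT replicate 2 or 3, without any 1 of the 4 DKO pairs, with no replicate block, or with only the pairs of low RN7SL1, edgeR called 0 of the 79, and without WT replicate 4 it called 24. The median of the 79 was −0.66 to −0.54 with any 1 pair left out. DESeq2 called 43 of the 79 lower and limma-voom 26.

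Other genes with TOP mRNAs were examined as a list gathered after the ribosomal proteins were seen. All 20 tested genes were below 0, with a median of −0.47. Of them 15 were lower at an unadjusted p under 0.05, against 1144 of all 21810 genes. EdgeR called none of the 20, DESeq2 6 and limma-voom 2, where over all 21810 genes they called 39, 195 and 64. The translation elongation factor gene EEF1A1 fell in DKO by 0.73 ± 0.11 (edgeR adjusted p = 0.00251), from 7836, 8594, 2764 and 3659 CPM to 4733, 5039, 1892 and 1986 CPM, and its genotype difference was −0.79 ± 0.15 (edgeR adjusted p = 0.0778). EEF1A1 was also among the genes that parted the RN7SL1 sets, and it was lower after EZ in all 4 DKO pairs. The elongation factor gene EEF1B2 (−0.67 ± 0.12) came closest, with an edgeR adjusted p of 0.0558. The initiation factor gene EIF3L (−0.58 ± 0.11) and the scaffold gene RACK1 (−0.60 ± 0.13) had edgeR adjusted p of 0.0799 and 0.106. In DKO, 16 of the 20 were called lower by edgeR, against 3.12% of all genes.

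Mitochondrial ribosomal proteins and ribosome assembly factors had medians nearer to 0. The 77 tested genes of mitochondrial ribosomal proteins had a median of −0.18 with 0 called by edgeR (17 lower and 1 higher at an unadjusted p under 0.05), 0 by DESeq2 and 0 by limma-voom. Over all 21810 genes 1144 were lower and 1001 higher at that level. The 17 of 77 are a larger share than that. For 14 of the 77 all DKO differences lay below all WT ones, also a larger share than the 4.26% of all genes. The 32 genes of RNA polymerase I and ribosome assembly also had a median of −0.18, with 0 called by any of the 3 tools. Of them 8 were lower at an unadjusted p under 0.05, and for 6 all DKO differences lay below all WT ones. Both are larger shares than over all genes. In DKO 3 of the 32 were called lower by edgeR, against 3.12% of all genes. NOP53 (chromosome 19, 47745522 to 47757058), which encodes a nucleolar protein of ribosome assembly, was called on its own. It stood at 38.7, 33.1, 35.7 and 37.1 CPM in DKO DMSO and 22.7, 19.2, 23.1 and 23.4 CPM in DKO EZ, and at 41.4 to 67.0 CPM in all WT libraries under DMSO and 43.3 to 67.1 CPM under EZ. Its genotype difference was −0.75 ± 0.12 (edgeR adjusted p = 0.0366).

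SLC25A6 (chromosome X, 1386152 to 1392724), the mitochondrial ADP/ATP carrier gene of the pseudoautosomal region, also fell in DKO alone by the calls. Its level was 404, 389, 372 and 463 CPM in WT DMSO and 535, 365, 366 and 488 CPM in WT EZ. In DKO it went from 151, 138, 157 and 196 CPM to 87.5, 83.0, 94.7 and 92.8 CPM, so that every DKO EZ library was below every DKO DMSO library. The genotype difference was −0.93 ± 0.14 (edgeR adjusted p = 0.0293). ACAA2, a mitochondrial thiolase of fatty acid oxidation, also fell in DKO alone by the calls, from 24.7, 38.2, 32.1 and 39.3 CPM to 12.04, 21.3, 19.4 and 23.0 CPM (genotype difference −0.96 ± 0.16, edgeR adjusted p = 0.0366).

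PCDH15 and PCDH17 also fell in DKO alone by the calls, and both are protocadherins, adhesion molecules best known from sensory and nervous tissue. PCDH15 went from 1.73, 7.13, 7.07 and 4.46 CPM to 0.419, 4.10, 3.30 and 2.10 CPM in DKO, and was higher after EZ in all 4 WT pairs, with log2 differences of 0.207 to 0.804 (genotype difference −1.70 ± 0.28, edgeR adjusted p = 0.0373). PCDH17 rested on few reads, 78 over the 4 DKO DMSO libraries and 3, 1, 5 and 3 in the 4 DKO EZ libraries, against 113 and 129 over the WT groups. Its genotype difference was −2.95 ± 0.52 (edgeR adjusted p = 0.0366). None of the 14 tested neuroendocrine markers was called by edgeR, DESeq2 or limma-voom, and 0 had an unadjusted p under 0.05.

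**Figure D3:**
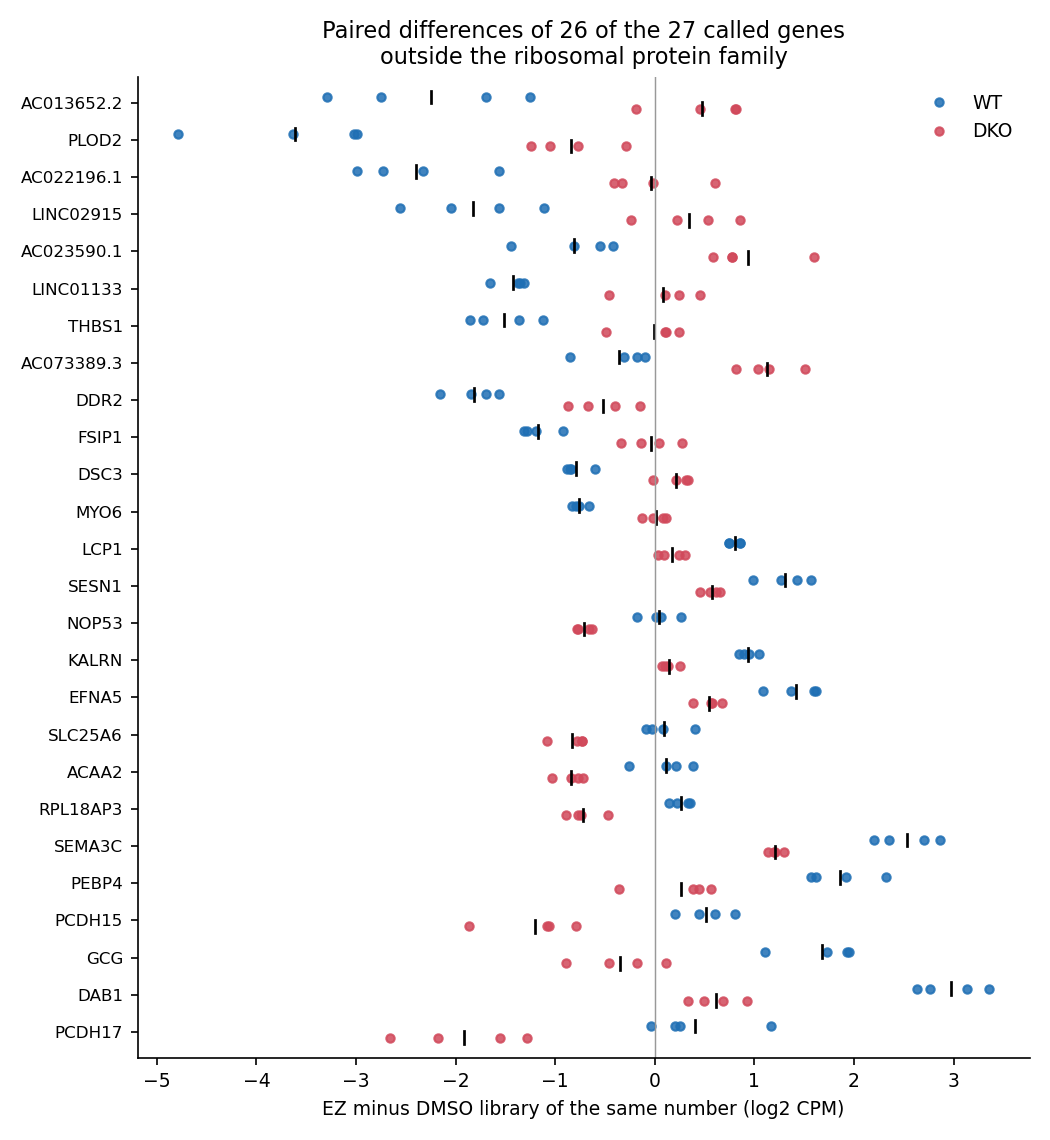
EZ minus DMSO difference (log2 CPM) of each WT pair (blue) and DKO pair (red) for 26 of the 27 called genes outside the ribosomal protein family, ordered by the genotype difference, with a black bar at the mean of the 4 pairs. In none of the 26 do the WT and DKO points overlap; genes at the top fell in WT, and those at the bottom rose more in WT or fell in DKO.

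Of the 8 called genes that rose in WT, 3 also rose in DKO, by less, and 5 had no called change there. SEMA3C (chromosome 7, 80742538 to 80922359), a secreted semaphorin that acts through plexin and neuropilin receptors, had the smallest adjusted p of all genes. It went from 43.0, 56.6, 47.2 and 72.3 CPM to 219, 370, 343 and 334 CPM in WT, and from 27.4, 38.9, 32.0 and 38.01 CPM to 60.4, 90.1, 78.9 and 87.1 CPM in DKO. Every EZ library was above every DMSO library in both genotypes, and the rise was 5.78-fold in WT and 2.32-fold in DKO. The genotype difference was −1.32 ± 0.14 (edgeR adjusted p = 0.0149), and it passed the threshold in 13 of the 18 alternatives, the most of any gene.

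DAB1 (chromosome 1, 56994778 to 58546734) encodes the adaptor through which reelin receptors signal in migrating neurons. In WT it went from 0.522, 0.756, 1.22 and 1.62 CPM to 6.04, 7.21, 7.92 and 11.4 CPM. In DKO replicates 1 to 3 it stood at 0.148 to 0.289 CPM in DMSO and 0.240 to 0.552 CPM in EZ, and in replicate 4 at 2.50 and 4.07 CPM. Replicates 1 to 3 of DKO rest on 3, 6 and 8 reads in DMSO and 4, 7 and 13 in EZ, against 110 and 194 in replicate 4. The EZ level was 8.19-fold that in DMSO in WT and 1.62-fold in DKO, where the effect did not pass the threshold (edgeR adjusted p = 0.0980), and the genotype difference was −2.34 ± 0.31 (edgeR adjusted p = 0.0292).

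EFNA5 (chromosome 5, 107376889 to 107670895), a membrane-anchored ephrin ligand, went from 113 to 148 CPM in WT DMSO to 240 to 412 CPM in WT EZ. It began higher in DKO, at 311 to 407 CPM, and reached 445 to 605 CPM. The genotype difference was −0.87 ± 0.14 (edgeR adjusted p = 0.0321). KALRN, a guanine nucleotide exchange factor that acts on the actin cytoskeleton, rose 1.91-fold in WT, from 5.22, 7.67, 7.25 and 7.93 CPM to 10.9, 14.8, 13.5 and 14.3 CPM. In DKO it stood at 28.6 to 35.1 CPM and 30.0 to 39.1 CPM, and its genotype difference was −0.80 ± 0.12 (edgeR adjusted p = 0.0314). LCP1, the actin-bundling protein L-plastin, rose 1.74-fold in WT and stood at 1.12-fold in DKO, where the effect was not called (genotype difference −0.63 ± 0.11, edgeR adjusted p = 0.0373).

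GCG (chromosome 2, 162142873 to 162152404), the preproglucagon gene, rose in each WT pair, from 3.81, 3.47, 2.84 and 6.06 CPM to 8.31, 11.7, 11.2 and 23.3 CPM. In DKO it went from 0.839, 5.31, 5.34 and 5.94 CPM to 0.419, 5.76, 3.87 and 5.24 CPM, and 3 of 4 pairs went down. Its genotype difference was −1.97 ± 0.25 (edgeR adjusted p = 0.0292). PEBP4, a phosphatidylethanolamine-binding protein gene on chromosome 8, rose 3.9-fold in WT, to 2.47 to 4.49 CPM, and stood at 4.03 to 6.02 CPM in DKO DMSO and 4.67 to 7.76 CPM in DKO EZ (genotype difference −1.69 ± 0.29, edgeR adjusted p = 0.0380). The WT DMSO level of PEBP4 rests on 87 reads over the 4 libraries.

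SESN1 (chromosome 6, 108986437 to 109094819), a p53-induced inhibitor of the growth kinase mTORC1, rose in both genotypes. It went from 120, 92.0, 71.9 and 83.3 CPM to 237, 247, 213 and 201 CPM in WT, 2.48-fold, and from 43.4, 45.7, 43.0 and 62.6 CPM to 59.5, 72.0, 63.3 and 95.9 CPM in DKO, 1.49-fold. The genotype difference was −0.74 ± 0.13 (edgeR adjusted p = 0.0489), the largest adjusted p among the calls. It was the 1 called gene among 36 tested p53-induced genes, whose median was −0.02. CDKN1A, the p53-induced CDK inhibitor gene, had a genotype difference of 0.63 ± 0.71 (edgeR adjusted p = 0.822), and BTG2 rose in both genotypes by 1.249 and 1.2 with a difference of −0.05 ± 0.19 (edgeR adjusted p = 0.963).

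The genes with a genotype difference above 0 that follow were lowered by EZ in WT. PLOD2 (chromosome 3, 146069440 to 146163653), the lysyl hydroxylase of collagen crosslinks, went from 6.84, 9.46, 6.96 and 17.2 CPM to 0.776, 0.693, 0.811 and 0.550 CPM in WT. In DKO it went from 51.4, 47.3, 34.0 and 16.6 CPM to 24.8, 19.96, 19.9 and 13.6 CPM. Each pair was lower after EZ, with paired log2 differences of −4.79 to −2.99 in WT and −1.24 to −0.29 in DKO. The DKO effect missed the threshold (edgeR adjusted p = 0.0514), and the genotype difference was 2.96 ± 0.38 (edgeR adjusted p = 0.0293). The WT EZ levels rest on 68 reads over the 4 libraries.

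DDR2 (chromosome 1, 162631373 to 162787400), a receptor tyrosine kinase activated by fibrillar collagen, fell in both genotypes. It went from 19.2, 20.7, 30.2 and 30.4 CPM to 5.87, 6.98, 8.35 and 6.76 CPM in WT, and from 12.99, 14.3, 14.04 and 19.1 CPM to 11.7, 8.91, 10.6 and 10.4 CPM in DKO. The drug effects were −1.83 ± 0.14 and −0.53 ± 0.14, a genotype difference of 1.299 ± 0.19 (edgeR adjusted p = 0.0293). It was the 1 called gene of 26 tested receptor tyrosine kinases, whose median was −0.03. PLOD2 was the 1 called gene of 22 hypoxia and glycolysis genes, whose median was −0.08.

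DSC3 (chromosome 18, 30990008 to 31042815), a desmosomal cadherin, went from 15.6, 7.42, 8.13 and 4.28 CPM to 8.42, 4.85, 4.48 and 2.35 CPM in WT. In DKO it stood at 26.3 to 29.9 CPM in DMSO and 29.5 to 35.6 CPM in EZ, above all WT libraries. Its genotype difference was 1.01 ± 0.14 (edgeR adjusted p = 0.0293). MYO6 (chromosome 6, 75749192 to 75919537), the myosin that moves towards the minus end of actin filaments, went from 1036, 1122, 1042 and 958 CPM to 612, 632, 657 and 553 CPM in WT. In DKO it lay at 235 to 275 CPM in DMSO and 250.5 to 277 CPM in EZ, so the drug effect was −0.76 ± 0.08 in WT and 0.01 ± 0.08 in DKO (genotype difference 0.77 ± 0.11, edgeR adjusted p = 0.0293). LINC01133, a long noncoding RNA on chromosome 1, went from 10.8 to 16.98 CPM to 4.11 to 5.35 CPM in WT and from 6.37 to 12.7 CPM to 6.86 to 12.5 CPM in DKO (genotype difference 1.52 ± 0.21, edgeR adjusted p = 0.0293).

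THBS1 (chromosome 15, 39581079 to 39599466), the matricellular glycoprotein thrombospondin-1, fell in WT with no called change in DKO, and 4 of its neighbours were called in the same direction. THBS1 went from 20.9, 40.2, 37.2 and 31.7 CPM to 9.53, 12.1, 14.5 and 8.71 CPM in WT, and from 43.8, 23.2, 20.7 and 31.5 CPM to 51.9, 24.9, 22.4 and 22.4 CPM in DKO. Every WT EZ library was below every WT DMSO library, and the DKO groups overlapped. The drug effect was −1.53 ± 0.14 in WT and −0.01 ± 0.14 in DKO, a genotype difference of 1.52 ± 0.20 (edgeR adjusted p = 0.0292).

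Within 500 kb of the THBS1 start, a window chosen after the calls were seen, 15 genes were tested. EdgeR called 5 of them in the genotype difference, all higher, where 0.055% of all genes were called higher. In WT 9 of the 15 were called lower, against 4.44% of all genes, and 1 higher. In DKO edgeR called 0 of the 15, with 3 at an unadjusted p under 0.05, DESeq2 1 and limma-voom 0. The called neighbours were LINC02915, AC013652.2 (ENSG00000259447), AC022196.1 (ENSG00000259390) and FSIP1.

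LINC02915, whose start lies at −330.4 kb from that of THBS1, went from 1.04, 6.09, 9.34 and 2.41 CPM to 0.443, 0.971, 2.20 and 0.764 CPM in WT, and from 5.09, 1.19, 1.73 and 1.87 CPM to 7.43, 2.21, 2.04 and 1.57 CPM in DKO. Its genotype difference was 2.34 ± 0.33 (edgeR adjusted p = 0.0293). The long noncoding RNA genes AC013652.2, at −270.3 kb, and AC022196.1, at −61.1 kb, had genotype differences of 3.22 ± 0.50 and 2.83 ± 0.49 (edgeR adjusted p = 0.0293 and 0.0366). Both rest on few reads, 199 and 161 over the 4 WT DMSO libraries and 24 and 19 over the 4 WT EZ libraries. AC013652.1 and AC109630.1, whose starts lie between these genes, also fell in WT (−1.497 ± 0.22 and −2.60 ± 0.33, edgeR adjusted p = 0.00147 and 0.000567), with genotype differences that missed the threshold (edgeR adjusted p = 0.0968 and 0.0558). The gene body of AC013652.1 spans those of AC113146.1, LINC02915 and AC013652.2, the last on the same strand. THBS1-IT1 lies within THBS1. Reads may be shared among these genes, so the counts of called genes in the window may not be of separate genes.

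FSIP1, a sperm-associated protein gene that starts 201.8 kb after THBS1 on the other strand, went from 7.52, 13.8, 12.9 and 11.5 CPM to 3.93, 6.01, 5.18 and 4.71 CPM in WT. In DKO it stood at 8.55 to 14.9 CPM in DMSO and 9.70 to 15.4 CPM in EZ, a genotype difference of 1.153 ± 0.18 (edgeR adjusted p = 0.0321). Its gene body overlaps that of THBS1 by 11110 bases, and without the strand setting of the authors' counting, reads of the overlap cannot be told apart. Farther on, GPR176 (0.32 in WT), EIF2AK4 (0.09) and SRP14 (0.23) had drug effects above 0 in WT and genotype differences of −0.25 to −0.03. The other two tested genes there differed: SRP14-DT fell in WT (−0.45, edgeR adjusted p = 0.0111) with a genotype difference of 0.21, and GPR176-DT had −0.05 in WT and a genotype difference of −0.59. None of these 5 genotype differences was called (edgeR adjusted p from 0.501 to 0.959).

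**Figure D4:**
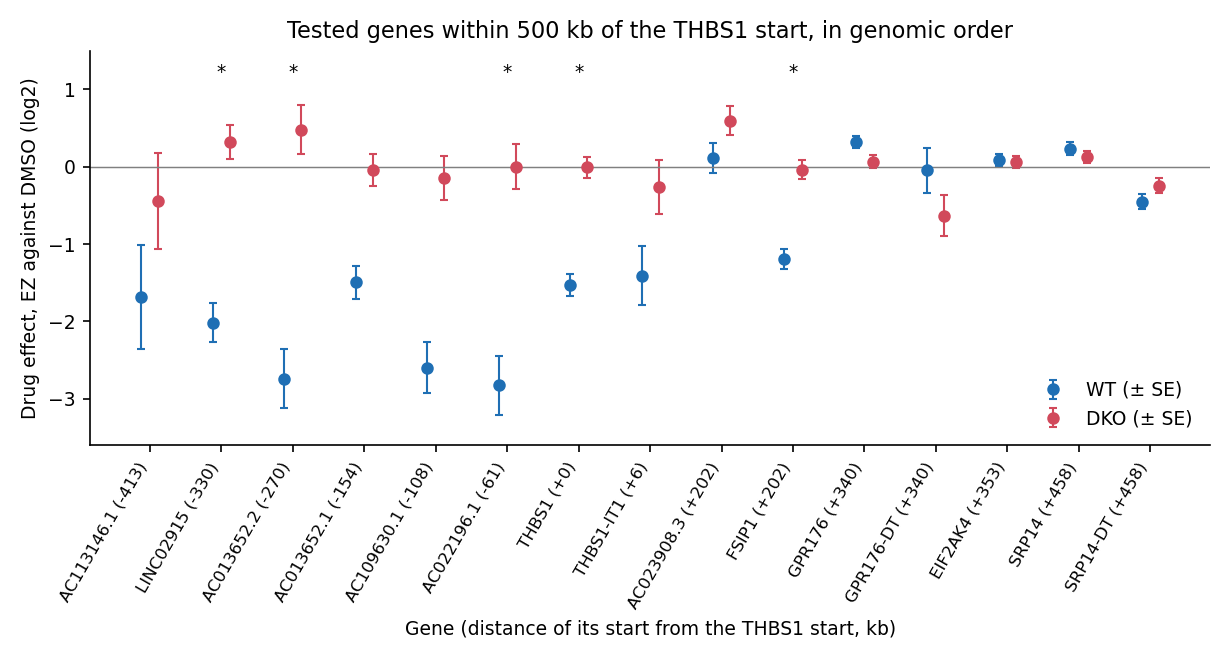
Drug effect (EZ against DMSO, log2, ± SE) in WT (blue) and DKO (red) for the 15 tested genes that start within 500 kb of the THBS1 start, in genomic order with the distance of each start in kb. Stars mark called genotype differences; from AC113146.1 to FSIP1 all WT values except that of AC023908.3 are below −1, and the DKO values lie between −0.45 and 0.59.

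Noncoding genes outside this region completed the calls. AC073389.3 (ENSG00000272791), a long noncoding RNA gene on chromosome 10, rose in DKO from 5.09, 5.01, 6.03 and 6.55 CPM to 14.6, 10.3, 13.5 and 11.6 CPM, and stood at 1.67 to 2.32 CPM and 1.16 to 1.87 CPM in WT (genotype difference 1.51 ± 0.24, edgeR adjusted p = 0.0335). AC023590.1, an antisense gene on chromosome 8, fell in WT by 0.85 and rose in DKO by 1.01, each called, with a genotype difference of 1.87 ± 0.32 (edgeR adjusted p = 0.0438). Because the strand setting is unknown, reads from the gene opposite it may be included.

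Only 6 protein-coding genes were called higher, so the next 6 by unadjusted p at 2 CPM or more are given, none of which passed the threshold. They were the transcription factor genes CREB5 (1.195 ± 0.22) and KLF7 (1.22 ± 0.23), the focal adhesion gene TNS1 (1.02 ± 0.20), the potassium channel gene KCNJ13 (1.22 ± 0.24), the cold-sensing channel gene TRPM8 (1.84 ± 0.36) and the cytoskeletal anchor gene PHLDB2 (0.65 ± 0.13). Their edgeR adjusted p ran from 0.0558 to 0.0901. TRPM8, a known androgen receptor target, fell in WT by 1.95 (edgeR adjusted p = 0.000575) and had a drug effect of −0.11 in DKO (edgeR adjusted p = 0.848).

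A panel of genes for androgen response, cell cycle and lineage held no called genotype difference. Of its 24 tested genes, edgeR called 0, with 1 at an unadjusted p under 0.05, and DESeq2 and limma-voom called 0. The pairs of WT and DKO overlapped for all 24. The kallikrein genes KLK3 (−0.29 ± 0.96) and KLK2 (−0.09 ± 1.05) had wide errors. ID1, an inhibitor of helix-loop-helix factors, rose by 3.19 in WT and 3.45 in DKO, and the sterol regulator gene INSIG1 fell by 1.72 and 1.497, each called. SPRY4, which dampens growth factor signals, rose by 5.46 and 3.56, and its genotype difference of −1.90 ± 0.60 had an edgeR adjusted p of 0.368. In WT 8 and in DKO 5 of the 24 were called, where 12.1% and 7.75% of all genes were.

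Of 35 gene lists that covered the pathways, lineage markers and other cell types, 31 held no called member. Among the 650 tested entries of these 31 lists, edgeR called 0, with 26 higher and 41 lower at an unadjusted p under 0.05 against 1001 higher and 1144 lower of all 21810 genes, which are similar shares, and DESeq2 called 5 and limma-voom 1. Medians of lists with at least 10 tested genes ran from −0.73 for 39 replication-dependent histone genes to 0.30 for 27 ATF4 and stress response genes. The median was 0.05 for 39 androgen-induced genes, −0.45 for 18 androgen-repressed genes, −0.30 for 48 E2F and replication genes and −0.51 for 39 mitosis genes. Of the 39 androgen-induced genes, 6 were higher and 0 lower at an unadjusted p under 0.05, and DESeq2 called 1. Of the 18 androgen-repressed genes, 4 were lower and 0 higher at that level, and DESeq2 called 2. For 5 of these 18 all DKO differences lay below all WT ones, against 4.26% of all genes. The 6, the 4 and the 5 are each a larger share than over all genes. The 31 nuclear-encoded respiratory chain genes had a median of −0.22, and 29 were below 0. None of the 31 was called by edgeR, DESeq2 or limma-voom. At an unadjusted p under 0.05, 8 were lower and 0 higher, a larger share lower than the 1144 of all 21810 genes. For 7 all DKO differences lay below all WT ones, also a larger share than the 4.26% of all genes. Their pair medians were 0.191, 0.125, 0.225 and 0.303 in WT and −0.068, 0.002, 0.027 and 0.085 in DKO, which do not overlap. All 39 mitosis genes were below 0, and none had an unadjusted p under 0.05.

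Other lists held members whose own drug effect was called in both genotypes. Over all genes 12.1% were called in WT (4.44% lower) and 7.75% in DKO (3.12% lower), with 1672 and 1010 of the 21810 genes called higher. Of 29 cholesterol genes, edgeR called 14 lower and 3 higher in WT and 12 lower and 3 higher in DKO, with medians of −0.51 and −0.45. Of 17 genes of MHC class I antigen presentation, 9 were called higher in WT and 6 in DKO, and none lower. Of 24 genes of ID and BMP and TGF-beta signalling, 5 were called higher and 1 lower in WT and 9 higher and 1 lower in DKO. The genotype difference was called by edgeR, DESeq2 or limma-voom for 0 genes of these lists, and 4 cholesterol, BMP and TGF-beta genes together had an unadjusted p under 0.05.

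**Figure D5:**
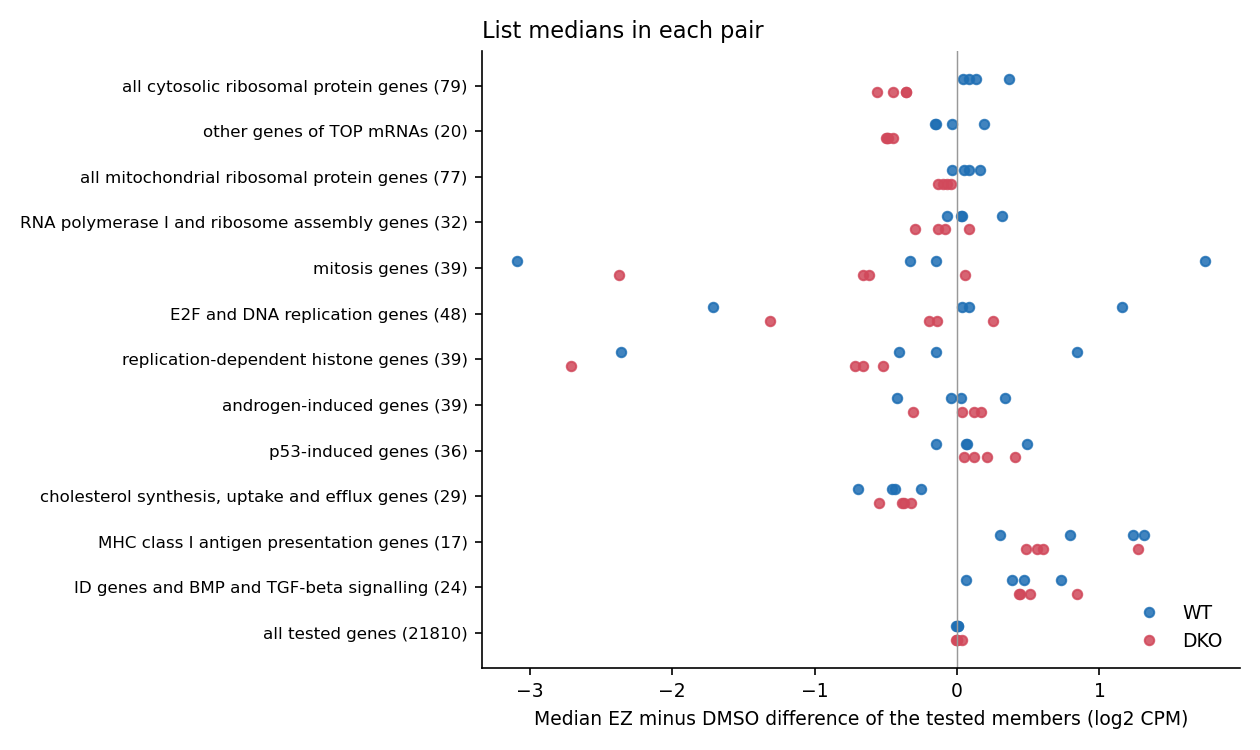
Median EZ minus DMSO difference (log2 CPM) of the tested members of 12 gene sets and of all tested genes in each WT pair (blue) and DKO pair (red), with the number of tested genes in parentheses. The WT and DKO points are apart for the cytosolic ribosomal protein genes and the other TOP genes, apart by under 0.01 for the mitochondrial ribosomal protein genes, and overlap for the mitosis, replication, histone, androgen and cholesterol genes.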

How the data were processed

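RNA was sequenced from 16 libraries made from total RNA with ribosomal RNA depletion, per the labels' protocols. The authors deposited raw counts per Ensembl gene ID; STAR 2.7.3a and GRCh38 are named in the submitters' processing notes. No source used here names the counting tool, its strand setting or the annotation. Symbols were found for 60357 of 60676 IDs, and coordinates are from GENCODE v29 (GRCh38).

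Genes were kept by filterByExpr (minimum count 10, minimum total 15), libraries were scaled by TMM, and edgeR 4.0.16 (R 4.3.3) fitted 1 block per genotype and replicate number plus 1 drug coefficient per genotype, with a robust quasi-likelihood F-test and Benjamini-Hochberg adjustment over 21810 genes. SE come from the fitted information matrix. Paired differences use log2 CPM with a prior count of 2. Unless another tool is named, adjusted p are edgeR's. DESeq2 1.42.0 and limma 3.58.1 were alternatives. The code was tested on simulated data.

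The numbers pair the samples: deviations from the group means correlated at 0.326 to 0.664 between libraries of the same number within a genotype, best with their own number in 8 of 8 cases. Labels state neither what a number stands for nor whether cultures were separate; p-values therefore reflect only variation among these libraries, possibly technical. Replicates of a group differed beyond counting noise (chi-square per degree of freedom 5.37 to 104). WT replicates 2 and 3 were the closest, at 8.46 in DMSO and 5.37 in EZ, and whether they were independent cannot be told. EdgeR called 0 genes without WT replicate 2 and 1 without WT replicate 3, against 63 and 70 without WT replicates 1 and 4. Without 1 of the DKO pairs it called 0 to 5.

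Named were up to 12 protein-coding genes per direction with at least 2 CPM in a group and no overlap of pairs, filled by unadjusted p, the 3 leading noncoding genes, a panel, and called list members. Some results, 1 called gene among them, are not reported here. The members, lists and rules were chosen with earlier results of these data known.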

Additional observations from a re-analysis of the deposited data

Results flagged for a closer look

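The effect of enzalutamide differed between the genotypes for 39 genes by the edgeR interaction test, and the log2 genotype differences (DKO minus WT) of 38 of them are given here. Above 0 were AC013652.2 (3.22), PLOD2 (2.96), AC022196.1 (2.83), LINC02915 (2.34), AC023590.1 (1.87), LINC01133 (1.52), THBS1 (1.52), AC073389.3 (1.51), DDR2 (1.299), FSIP1 (1.153), DSC3 (1.01) and MYO6 (0.77). Below 0, outside the ribosomal proteins, were PCDH17 (−2.95), DAB1 (−2.34), GCG (−1.97), PCDH15 (−1.70), PEBP4 (−1.69), SEMA3C (−1.32), RPL18AP3 (−0.99), ACAA2 (−0.96), SLC25A6 (−0.93), EFNA5 (−0.87), KALRN (−0.80), NOP53 (−0.75), SESN1 (−0.74) and LCP1 (−0.63). The ribosomal protein genes were RPL10 (−0.95), RPL13A (−0.95), RPS14 (−0.85), RPL10A (−0.80), RPL7A (−0.79), RPS9 (−0.77), RPL23 (−0.76), RPS15A (−0.74), RPS4X (−0.72), RPS3 (−0.70), RPL32 (−0.70) and RPL28 (−0.67).

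A single pair stood apart from the other 3 of its genotype in 4 of 90 sets of paired log2 differences, where chance marks about 1 in 20. DSC3 fell less in WT replicate 2 (−0.605) than in the others (−0.885 to −0.841). In DKO replicate 4, SLC25A6 fell more (−1.08 against −0.783 to −0.731) and so did RPL10 (−1.19 against −0.712 to −0.704). PHLDB2 rose more in DKO replicate 1 (0.561 against 0.192 to 0.205).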

How the results depend on the processing

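Of 39 calls, edgeR kept 0 with no replicate block (0 genes called, 648 at an unadjusted p under 0.05) and 1 with a replicate block shared by both genotypes (1 called), and DESeq2 (195), limma-voom (64) and no filter on low counts (472) called more. Without both pairs numbered 1 there were 65 calls, with the low RN7SL1 pairs alone 4, and with 1 pair left out 0 to 70. EdgeR called 38, 29 and 50 genes with RLE, upper-quartile and no scaling. Drug-effect calls in WT were 724 with no replicate block, 1724 with the shared block and 1151 to 3081 with 1 pair left out. In DKO they were 322, 1104 and 546 to 2608, 2964 without the filter and 496 with the low RN7SL1 pairs. Ribosomal protein genes called lower, a count added after the data were seen, were 0 with no replicate block, 0 with the shared block, 43 by DESeq2, 26 by limma-voom, 55 without the filter, 0 with the low RN7SL1 pairs and 0 to 24 with 1 pair left out, while their median stayed below 0. No named gene changed its sign: over 45 named genes and 18 alternatives, 430 gene results stayed on their side of the threshold, 362 lost the call and 18 gained it. With 4 pairs a genotype, genes near 1 CPM rest on few reads. The causes were not tested.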
